A study of Homo sapiens with 6 samples.

Results

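The replication-dependent histone genes were taken as the genes of the deposited table whose symbol begins with HIST1H, HIST2H, HIST3H or HIST4H. There were 89 such genes among the 57905 genes of the table, and the 71 with a count in at least 1 library are described here. Of the 89, 71 are protein-coding in RefSeq and 18 are pseudogenes, and 61 and 10 of these had a count. They were measured by RNA-seq in HK-2, an immortalised line of human proximal tubule cells of wild-type genotype. Control cells had received a pool of non-targeting siRNA (3 libraries), and knockdown cells a pool of siRNA against INO80, the ATPase of a nucleosome remodeling complex (3 libraries). RNA was collected after 48 h in both groups. The study asked which genes depend on INO80 in tubule cells. No source states that the libraries of a group came from separate cultures, so the p-values measure only the spread between these libraries.

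Replication-dependent histone genes supply the H2A, H2B, H3 and H4 of the nucleosome core and the linker histone H1 that new DNA needs in S phase. Their primary transcripts mostly lack introns, and the mature mRNA usually ends just behind a conserved stem-loop, which binds the protein SLBP, rather than in a poly(A) tail. Some of the genes also give longer, polyadenylated transcripts that run past the stem-loop, mostly in differentiated cells. The libraries were made from RNA selected on its poly(A) tail, so transcripts that end at the stem-loop were selected against, and the counts cannot be read as the amount of histone mRNA in the cells.

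The stem-loop was looked for on the sense strand of the hg38 genome, in the 150 bases behind each annotated stop codon. It was found behind 71 of the 71 histone genes with a stop codon, against 87 of all 19924 protein-coding genes searched (0.437%). The 71 are among the 87. The motif, the histone stem-loop of 16 bases, began 23 to 68 bases behind the stop, with a median of 36. It took 10 forms, of which 1 was carried by 41 genes and 2 others by 10 genes each. The sequences of 7 genes are given because they are the most counted gene of each class, with HIST1H2BH and HIST2H2AC as examples of well counted genes with a short annotated transcript. They are written 5′ to 3′ on the strand of the gene, with the stem-loop in capitals and 5 genomic bases on each side in lower case.
HIST1H2BK: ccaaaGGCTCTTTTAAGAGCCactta
HIST1H2AC: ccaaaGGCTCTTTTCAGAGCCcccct
HIST1H1C: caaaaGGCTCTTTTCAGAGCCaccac
HIST1H2BH: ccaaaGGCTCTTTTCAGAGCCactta
HIST2H2AC: ccaaaGGCTCTTTTTAGAGCCaccca
HIST1H3D: ccaaaGGCTCTTTTCAGAGCCaacca
HIST4H4: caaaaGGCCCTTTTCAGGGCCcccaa
In hg38 the capitals lie at chr6:27146366-27146381 for HIST1H2BK on the minus strand, at chr6:26124669-26124684 for HIST1H2AC on the plus strand and at chr6:26055744-26055759 for HIST1H1C on the minus strand. Those of HIST1H2BH, on the plus strand, lie at chr6:26252055-26252070. Those of HIST2H2AC, on the plus strand, lie at chr1:149887391-149887406. Those of HIST1H3D, on the minus strand, lie at chr6:26196789-26196804, and those of HIST4H4, on the minus strand, at chr12:14770724-14770739. All 7 are in the 3′ untranslated region. The sequences alone did not separate the genes with counts from those without, since every coding gene carried the motif.

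The libraries held 16829273 to 20311588 counts under control siRNA and 20678008 to 23784599 under INO80 siRNA, so each knockdown library was deeper than each control library. The targeted gene, INO80, had 759, 1007 and 1044 counts under control siRNA and 277, 291 and 343 under INO80 siRNA, and its level fell by 1.90 ± 0.0956 (SE) on the log2 scale (edgeR, adjusted p = 1.6e-04, n = 3 and 3). Of 14 genes listed for proximal tubule epithelium, GGT1, PAX8, KRT8, KRT18, KRT19, CDH2 and EPCAM were well counted. LRP2, CUBN, AQP1, ANPEP, CDH1, PAX2 and SLC34A1 were at or near 0. The list was thus split, and these counts do not settle the labelled cell type.

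Histone genes gave few counts. All 89 together held 377, 438 and 418 counts in the control libraries and 519, 681 and 709 in the INO80 siRNA libraries, or 3142 in all. The members with a count had a median of 1.5 counts per library, against 442 over the 15343 genes that passed the filter on low counts. These sets were not filtered alike. The 11 histone genes that passed the same filter had means of 9.5 to 189 counts per library. Of the 71, 22 were counted in all 6 libraries, 39 had at most 10 counts in total and 11 had a single count. Another 12 were counted only under INO80 siRNA and 5 only under control siRNA, with at most 6 counts in total each, which at these depths shows no difference between the groups. The 18 genes at 0 included HIST1H1T, HIST1H2AA and HIST1H2BA, known as testis histones, and, by RefSeq's terms, 6 of 13 pseudogenes and 2 of 5 transcribed pseudogenes. In GENCODE v44, 4 of the 18 share over 90% of their stretches of 100 bases with another gene's transcript. Whether reads of such copies were left uncounted was not tested. A count of 0 in a library allows up to 3 counts, or 0.126 to 0.178 CPM (counts per 1000000 counts of the library).

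Counts were concentrated in few genes. HIST1H2BK, which encodes an H2B, held 36.1% of all histone counts and 32.8% to 40.7% in each library. The 5 most counted genes held 65.0% and the 11 that passed the filter 81.4%. By class, H2B genes took 60.1% of the counts (19 of 26 genes with a count), H2A genes 18.5% (17 of 22), H1 genes 10.3% (6 of 8), H4 genes 6.72% (14 of 16) and H3 genes 4.39% (15 of 17). No H3 gene passed the filter. By location, 89.7% of the counts fell on the HIST1 cluster of chromosome 6 and 7.45% on the HIST2 cluster of chromosome 1.

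The order of levels was read from the deposited FPKM, which are per length of exon. HIST1H2BK led with 9.78, 9.37 and 8.70 FPKM under control siRNA and 12.4, 12.4 and 13.1 under INO80 siRNA, above every other histone gene in every library. HIST1H1C, the gene of linker histone H1.2, had 2.19, 2.76 and 3.06 and then 3.57, 3.16 and 4.37 FPKM. HIST1H2BH, an H2B gene, had 2.24, 2.66 and 1.96 and then 2.84, 2.67 and 5.54 FPKM. HIST1H1C and HIST1H2BH overlapped within each group, so their order was not set. HIST2H2AC, an H2A gene, followed with a mean of 1.75 FPKM under control siRNA (SD 0.629, n = 3), HIST1H2BD, an H2B gene, with 1.72 (SD 0.0586) and HIST1H2AC, an H2A gene, with 1.03 (SD 0.226). The libraries of HIST2H2AC spread over those of HIST1H2BD, and those of HIST1H2BD lay above those of HIST1H2AC under control siRNA. The mean over all 6 libraries was at least 1 FPKM for 6 histone genes and at least 0.1 for 42.

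Members differed in the transcript that the deposited annotation gives them. The exonic length of the table less the coding length in GENCODE v44 was at most 180 bases for 50 coding genes, with a median of 68.5, and at least 431 for the other 21. The latter, which are annotated with a long untranslated part, held 69.0% of the histone counts and 8 of the 11 genes that passed the filter, and the 50 short ones held 28.7% and 3 of the 11, HIST1H1C, HIST1H2BH and HIST2H2AC. The pseudogenes held 2.32%. The limit between long and short was set at 200 bases after the values were seen. The median per gene, genes at 0 included, was 0.127 FPKM over the long genes and 0.102 over the short ones, on the deposited lengths. A median gives each gene equal weight, unlike the shares of counts, so these values are not set against those shares. The canonical poly(A) signal AATAAA stood in the last 40 bases of 12 of 18 histone genes whose GENCODE v44 exons run 100 or more bases past the stem-loop, and of 1 of the other 53. HIST1H2BK was short in GENCODE v44, where its exons end 5 bases behind the stem-loop, but had 820 exonic bases in the deposited table, 439 of them noncoding. This gene, with the most counts, weighs most in the split. HIST1H2AG was also long in the deposited table, with 1846 noncoding bases, and its GENCODE v44 exons end 5 bases behind the stem-loop. By GENCODE v44, the 18 genes that run past the stem-loop held 28.7% of the counts and the other 53 held 68.9%, the reverse of the split by the deposited annotation. Without HIST1H2BK, the long genes of the deposited annotation held 51.5% and the short ones 44.9%, and by GENCODE v44 the shares were 45.0% and 51.4%. The larger share thus still changed with the annotation, by a smaller margin.

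**Figure D1:**
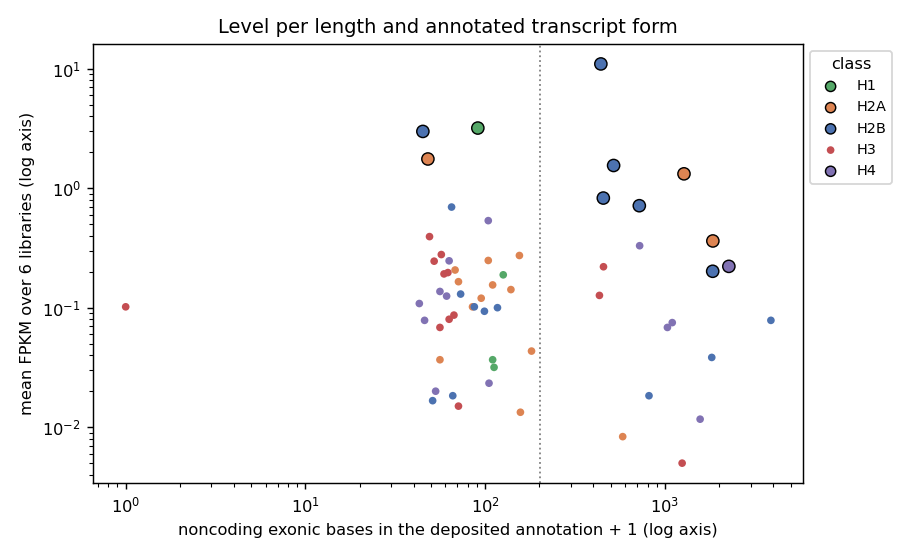
Each point is a coding histone gene with a count. The x axis gives its noncoding exonic bases in the deposited annotation plus 1 and the y axis its mean FPKM over 6 libraries, both on log axes, coloured by class. Large outlined points are the 11 genes that passed the filter on low counts, and the dotted line marks the limit of 200 bases, with 8 of the 11 on its right. HIST1H2BK is the highest point, at 11.0 FPKM.

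H2A and H2B genes often lie head to head with a common promoter region, and the members of such a couple were not counted alike. HIST1H2BK and HIST1H2AH, 241 bases apart, had 1135 and 9 counts in total. HIST1H2BC and HIST1H2AC, 218 bases apart, had 86 and 279 counts. HIST1H2BJ and HIST1H2AG, 290 bases apart, had 100 and 102, and HIST2H2BE and HIST2H2AC, 292 bases apart, had 57 and 96. Couples thus ranged from nearly equal to strongly unequal counts, but their exonic lengths differ. The mean FPKM over 6 libraries was 10.955 and 0.165 for HIST1H2BK and HIST1H2AH, and 0.827 and 1.32 for HIST1H2BC and HIST1H2AC. It was 0.713 and 0.362 for HIST1H2BJ and HIST1H2AG, and 0.202 and 1.755 for HIST2H2BE and HIST2H2AC. The couple with nearly equal counts thus differed per deposited length. That length was 2239 bases for HIST1H2AG, against 493 in GENCODE v44, and 1100 for HIST1H2BJ, against 1046. The order of these 2 genes per length thus depends on the annotation.

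In RefSeq promoters (GRCh38.p14, 250 bases before to 50 after the start, both strands searched), the CCAAT box was found in 60 of 70 promoters of 66 matched histone genes (85.7%) against 34.6% of all 35116 promoters. The letters TATAAA were found in 47 of the 70 (67.1%) against 11.5%. The octamer ATTTGCAT, known from H2B promoters, was found in 15 of 20 H2B promoters and in 12 of the 50 other histone promoters, against 1.77% of all. Windows of head to head genes overlap, so these are not independent promoters, and a match is a description of the letters only.

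Under INO80 siRNA the summed level of the family was higher. It was 23.0, 21.4 and 21.6 CPM in the control libraries and 25.8, 28.2 and 29.3 CPM in the INO80 siRNA libraries. Each knockdown library lay above each control library, and the means were 22.0 ± 0.849 and 27.8 ± 1.77 CPM (SD, n = 3 each), a ratio of 1.26. Without HIST1H2BK the sums were 14.8, 13.8 and 14.5 against 15.3, 18.2 and 18.7 CPM, still without overlap, at a ratio of 1.21. The 11 genes that passed the filter also did not overlap, with 18.8, 17.1 and 16.7 against 21.8, 22.2 and 24.8 CPM. The 60 others with a count gave 4.15, 4.31 and 4.91 against 4.03, 5.96 and 4.46 CPM, and their groups overlapped. No p is given for these sums.

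By class, H2B genes summed to 13.7, 13.3 and 12.7 CPM under control siRNA and 16.6, 16.4 and 17.2 under INO80 siRNA, and H1 genes to 1.71, 2.45 and 2.38 and then 2.79, 2.65 and 3.30. Both classes were higher in every knockdown library. H2A genes had 5.12, 3.38 and 3.93 CPM against 4.48, 5.38 and 5.41, H4 genes 1.34, 1.37 and 1.29 against 1.14, 2.32 and 2.35, and H3 genes 1.10, 0.930 and 1.34 against 0.846, 1.41 and 0.991. In these 3 classes the groups overlapped, and the mean of H3 genes was slightly lower under INO80 siRNA. The HIST1 cluster summed to 19.6 ± 0.766 and 25.1 ± 1.21 CPM without overlap, while the HIST2 cluster gave 1.78 ± 0.400 and 1.95 ± 0.369 CPM with overlap (SD, n = 3 each).

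**Figure D2:**
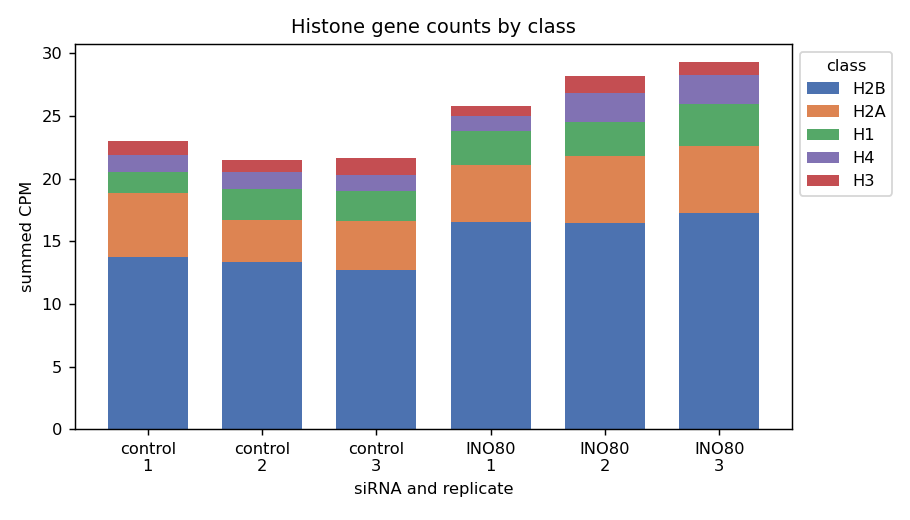
Bars give the summed CPM of all histone genes in each of the 6 libraries, from 0, with a segment for each class. The 3 control libraries reach 21.4 to 23.0 CPM and the 3 INO80 siRNA libraries 25.8 to 29.3 CPM, and the H2B segment is the largest in each.

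By annotated form, the 21 genes with a long untranslated part summed to 16.5, 14.6 and 14.5 CPM under control siRNA and 18.7, 19.3 and 19.6 under INO80 siRNA, a ratio of 1.26. The 50 short genes summed to 6.28, 5.87 and 6.36 against 6.57, 8.24 and 9.25 CPM, a ratio of 1.30. Both forms were higher in every knockdown library. Without HIST1H2BK the long genes overlapped between the groups (ratio 1.17), and so did the short genes without HIST1H1C and HIST1H2BH (ratio 1.16), these genes being left out after the values were seen.

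Tested one by one in the fit over all 15343 genes, 0 of the 11 histone genes passed an adjusted p of 0.05 (edgeR's quasi-likelihood test), where 1.75% of all genes did, 0.261% higher and 1.49% lower. At an unadjusted p under 0.05 there were 2 of 11, against 16.4% of all genes, and DESeq2, which gave an adjusted p for 3 of the 11, called 0 where it called 5.03% of all genes. The estimated change was above 0 for 9 of 11 genes, against 51.5% of all genes, with a median log2 fold change of 0.43 against 0.0066 over all genes. Groups did not overlap for 4 of the 11 (36.4%), all higher under INO80 siRNA, where the share of all genes was 22.8% in either direction and 11.3% higher. Same-numbered libraries of the groups deviated together over all genes, and with those numbers as a blocking term 2 of the 11 (18.2%) passed, HIST1H2BK and HIST1H2AC. The block brought 24.8% of all genes past the threshold, 11.4% higher, so this share is near the background.

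**Figure D3:**
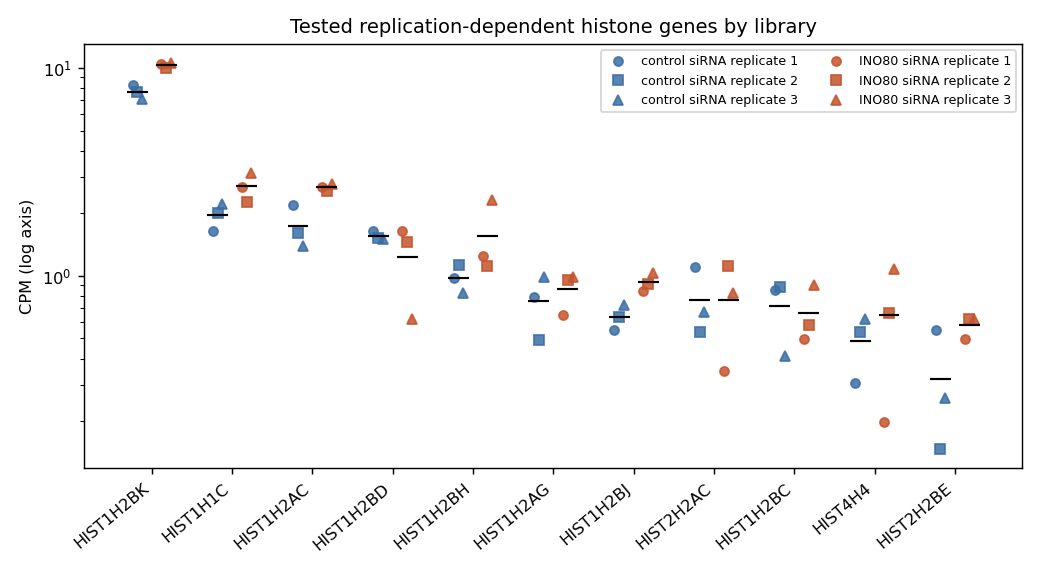
CPM on a log axis of the 11 histone genes that passed the filter, with a point per library (blue, control siRNA; orange, INO80 siRNA; shapes, replicate numbers) and a black bar at each group mean. For HIST1H2BK, HIST1H1C, HIST1H2AC and HIST1H2BJ the orange points all lie above the blue ones.

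HIST1H2BK had 8.23, 7.64 and 7.09 CPM under control siRNA and 10.5, 9.98 and 10.5 under INO80 siRNA, from 135, 156 and 137 against 211, 241 and 255 counts. Each knockdown library was higher than each control library. The log2 fold change was 0.43 ± 0.116 (SE, n = 3 and 3), with an adjusted p of 0.111 in edgeR and of 0.0044 in edgeR with the block, and the exact two-sided permutation p was 0.1, the smallest that 3 against 3 allows. The gene (ENSG00000197903) lies on the minus strand of GRCh37 chromosome 6, from 27106073 to 27114619. There it overlaps HIST1H4I on the opposite strand, which had 1, 3 and 0 against 2, 5 and 1 counts. In GENCODE v44, 22.5% of its stretches of 100 bases also occur in another gene's transcript, the highest share among the 11.

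HIST1H2AC, which encodes an H2A, had 36, 33 and 27 counts under control siRNA and 54, 62 and 67 under INO80 siRNA, or 2.20, 1.61 and 1.40 against 2.69, 2.57 and 2.77 CPM. All 3 knockdown libraries were higher. The log2 fold change was 0.63 ± 0.227 (SE, n = 3 and 3), with an adjusted p of 0.215 in edgeR and of 0.0382 in edgeR with the block. The gene (ENSG00000180573) lies on the plus strand of GRCh37 chromosome 6, from 26124373 to 26139344. Its head to head neighbour HIST1H2BC, an H2B gene, had 14, 18 and 8 against 10, 14 and 22 counts, and its groups overlapped, with a log2 fold change of -0.10 ± 0.406.

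HIST1H1C had 27, 41 and 43 counts under control siRNA and 54, 55 and 76 under INO80 siRNA, or 1.65, 2.01 and 2.22 against 2.69, 2.28 and 3.14 CPM. The groups did not overlap, but the lowest knockdown library lay close to the highest control library. The log2 fold change of 0.46 ± 0.221 had an adjusted p of 0.359 in edgeR and of 0.136 in edgeR with the block. HIST1H2BJ, an H2B gene, had 9, 13 and 14 against 17, 22 and 25 counts without overlap in CPM, and a log2 fold change of 0.54 ± 0.291 (edgeR, adjusted p = 0.410).

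Other tested genes showed no separation of the groups. HIST1H2BH had 16, 23 and 16 counts under control siRNA and 25, 27 and 56 under INO80 siRNA, and replicate 3 of the knockdown stood well above the rest. Its log2 fold change was 0.67 ± 0.350 (edgeR, adjusted p = 0.394), and 0.27 without that library. HIST1H2BD had 27, 31 and 29 against 33, 35 and 15 counts, so the same knockdown library that was highest for HIST1H2BH was lowest here. HIST1H2BD had a log2 fold change of -0.34 ± 0.358 (edgeR, adjusted p = 0.702), which was -0.0088 without INO80 siRNA replicate 3 and -0.58 without INO80 siRNA replicate 1. The gene overlaps the pseudogene LARP1P1 on the same strand.

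HIST1H2AG, an H2A gene, had 13, 10 and 19 counts against 13, 23 and 24, and HIST2H2AC had 18, 11 and 13 against 7, 27 and 20. HIST4H4, the only tested histone gene outside chromosomes 1 and 6, had 5, 11 and 12 against 4, 16 and 26. Replicate 1 of the knockdown was the lowest library of HIST2H2AC and HIST4H4. HIST2H2BE, an H2B gene, had 9, 3 and 5 counts against 10, 15 and 15, with a log2 fold change of 0.91 ± 0.479 (edgeR, adjusted p = 0.400), and its groups overlapped in CPM. This was 1.504 without control replicate 1 and 0.55 without control replicate 2.

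**Figure D4:**
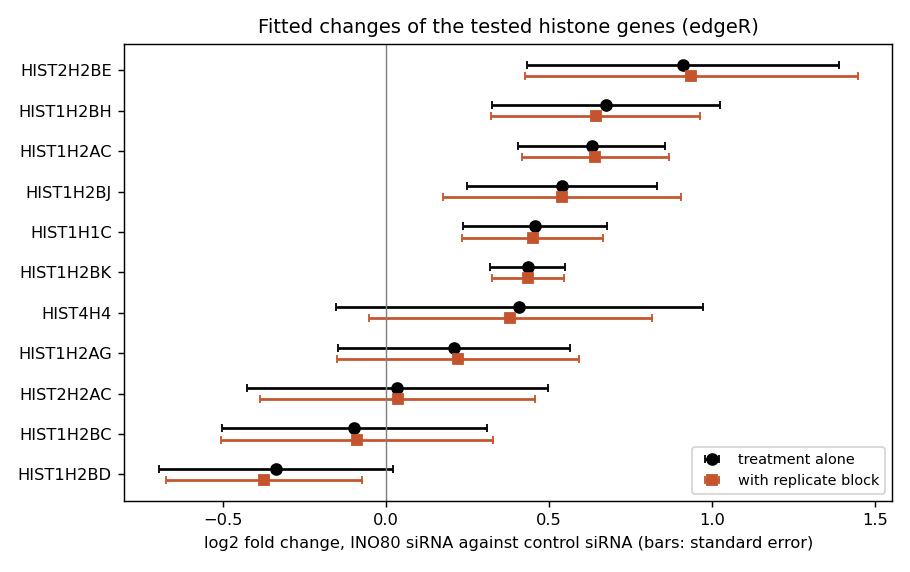
Points give the log2 fold change under INO80 siRNA against control siRNA of the 11 tested histone genes and bars its standard error, from edgeR with the treatment alone (black) and with the replicate block (orange). Estimates of both fits lie above 0 for 9 genes and range from -0.34 for HIST1H2BD to 0.91 for HIST2H2BE with the treatment alone.

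Members below the filter are given by counts only. Among H4 genes, HIST1H4H had 6, 7 and 2 counts under control siRNA and 6, 17 and 6 under INO80 siRNA, and HIST1H4C 2, 3 and 2 against 5, 5 and 12. Among H3 genes, HIST1H3D had 5, 3 and 5 against 4, 2 and 4, HIST1H3C 8, 3 and 3 against 1, 1 and 5, and HIST1H3G 1, 2 and 3 against 1, 8 and 2. Of the linker histone genes, HIST1H1E had 0, 7 and 3 against 1, 6 and 2, and HIST1H1B 0, 0 and 0 against 1, 1 and 2. At such counts no difference between the groups was detectable. Of the members with a count, 11 share over 90% of their stretches of 100 bases with another gene's transcript, so how reads were split between such copies is uncertain, and none of these passed the filter.

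Replacement histones, which are made also outside S phase and mostly from polyadenylated mRNA, gave far higher CPM in these poly(A)-selected libraries. The 12 of the list summed to 1561, 1689 and 1714 CPM under control siRNA and 1579, 1721 and 1754 under INO80 siRNA, 59.9 to 79.3 times the sum of the replication-dependent genes. H2AFZ, the gene of the variant H2A.Z that the INO80 complex is known to act on, had 546, 614 and 596 against 543, 635 and 631 CPM. The log2 fold change of H2AFZ was 0.04 ± 0.0780, of H2AFX, the gene of the damage-marked variant H2A.X, -0.05 ± 0.111, and of H3F3B, a gene of H3.3, 0.02 ± 0.0581. None of the 12 passed the threshold in edgeR. H3F3A, the other gene of H3.3, had 34.4, 36.3 and 37.1 against 28.8, 30.6 and 30.7 CPM without overlap. Its log2 fold change of -0.26 ± 0.0706 had an adjusted p of 0.115 in edgeR and of 0.0020 in edgeR with the block. The block called H3F3A and the variant gene H2AFY2 lower. These are 2 of 12 (16.7%), against 24.8% of all genes in either direction and 13.4% lower, so near the background.

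Of 28 genes for the processing and transcription of histone mRNA, all tested, 1 rose and 1 fell in edgeR (7.14%, against 1.75% of all genes). With the block 6 were called higher and 5 lower (39.3%, against 24.8% of all genes). CPSF2, a subunit of the 3′ end cleavage machinery, had 93.0, 95.4 and 90.8 CPM under control siRNA and 64.9, 67.1 and 71.7 under INO80 siRNA. It fell by 0.45 ± 0.0611 on the log2 scale (edgeR, adjusted p = 0.0149). CSTF2T, a cleavage stimulation factor, had 50.9, 46.9 and 45.5 against 60.1, 60.6 and 61.0 CPM and rose by 0.34 ± 0.0647 (edgeR, adjusted p = 0.0446). Neither acts on histone mRNA alone. Leaving out control replicate 2, control replicate 3 or INO80 siRNA replicate 3 left 0 calls among all the lists described here. SLBP, the stem-loop binding protein, had 168, 183 and 181 against 167, 175 and 168 CPM with a log2 fold change of -0.06 ± 0.0582. NPAT, the coactivator of histone genes, had a log2 fold change of 0.01 ± 0.108, and LSM11, a subunit of the U7 snRNP, of -0.14 ± 0.125. The groups overlapped for these 3 genes.

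Of 16 genes of histone mRNA decay, 1 fell and none rose in edgeR (6.25%, against 1.75% of all genes). With the block 3 were called lower and 0 higher (18.8%, against 24.8% of all genes in either direction and 13.4% lower). LSM4, a subunit of the ring that binds the 3′ end of decaying mRNA and of a spliceosomal ring, had 106, 114 and 108 CPM under control siRNA and 88.8, 84.4 and 83.4 under INO80 siRNA. Its log2 fold change was -0.36 ± 0.0589 (edgeR, adjusted p = 0.0299). Of 19 histone chaperones none passed in edgeR, and 4 were called higher and 6 lower with the block (52.6%, against 24.8% of all genes). Of 44 genes of S phase and replication, 1 fell and none rose in edgeR (2.27%, against 1.75% of all genes). With the block 11 were called lower and 4 higher (34.1%, against 24.8% of all genes). The gene that fell in edgeR was MCM2, a subunit of the replicative helicase that also binds histones, with 210, 279 and 265 against 95.3, 127 and 122 CPM and a log2 fold change of -1.13 ± 0.133 (edgeR, adjusted p = 0.0085). The median log2 fold change was 0.0085 for the processing list, -0.06 for decay, 0.01 for chaperones and -0.05 for S phase, all closer to 0 than the 0.43 of the tested histone genes. The share of cells in S phase was not measured here.

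Carry-over of RNA without a poly(A) tail can differ between libraries, so other such RNA was set beside the histones. Genes with the prefix SNORA summed to 18.4, 13.7 and 18.3 CPM under control siRNA and 19.5, 18.1 and 18.8 under INO80 siRNA, and SNORD genes to 21.8, 19.8 and 22.8 against 22.4, 20.8 and 24.7. Sums were 4.09, 3.13 and 3.00 against 3.78, 3.69 and 3.34 CPM for SCARNA genes and 14.6, 10.8 and 13.4 against 13.1, 12.2 and 13.3 for RNU genes. In all 4 groups the control and knockdown libraries overlapped. Between libraries of the same replicate number, the SNORA and SNORD sums, like the histone sum, were higher under INO80 siRNA in all 3. Small RNAs inside introns may also be counted from their host transcripts, so these sums are no pure measure of carry-over.

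Single RNAs of this kind varied more. RN7SK, a small nuclear RNA that holds back transcription elongation, had 31, 50 and 32 counts against 20, 97 and 61. RPPH1 and RMRP, the RNAs of 2 processing ribonucleases, were below the filter, with 2, 8 and 4 against 6, 10 and 11 counts and 8, 10 and 3 against 2, 25 and 11. MALAT1, a long nuclear RNA that ends in a triple helix, had 447, 303 and 391 against 407, 375 and 430 CPM. NEAT1, another long nuclear RNA, had 248, 139 and 190 against 261, 175 and 223 CPM. Its long form ends in a triple helix, but its short form is polyadenylated, so NEAT1 is no measure of RNA without a poly(A) tail. Of the 8 RNAs of this list, NEAT1 included, 6 were tested and none passed in edgeR, with a median log2 fold change of 0.14. With the block, NEAT1 (log2 fold change 0.21, adjusted p = 3.9e-04 in edgeR) and RN7SL1 (0.27, adjusted p = 0.0373) passed, both higher (2 of 6 or 33.3%, against 24.8% of all genes in either direction and 11.4% higher).

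Within replicate numbers, the histone sum under INO80 siRNA was 1.12, 1.32 and 1.35 times that under control siRNA for replicates 1, 2 and 3. The SNORA sum gave 1.06, 1.33 and 1.03 and the SNORD sum 1.03, 1.05 and 1.08. The SCARNA sum gave 0.925, 1.18 and 1.11 and the RNU sum 0.897, 1.13 and 0.995. RN7SK gave 0.526, 1.64 and 1.52, RN7SL1 1.32, 1.34 and 1.03, and RN7SL2 0.864, 1.13 and 1.02. NEAT1 gave 1.05, 1.26 and 1.17, and MALAT1 0.912, 1.24 and 1.10. Replacement histones gave 1.01, 1.02 and 1.02. Replicate 1 had the lowest ratio for all of these except SNORA and RN7SL1, for which replicate 3 had the lowest. Whether carry-over of RNA without a poly(A) tail has a part in the higher histone sum was not tested.

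**Figure D5:**
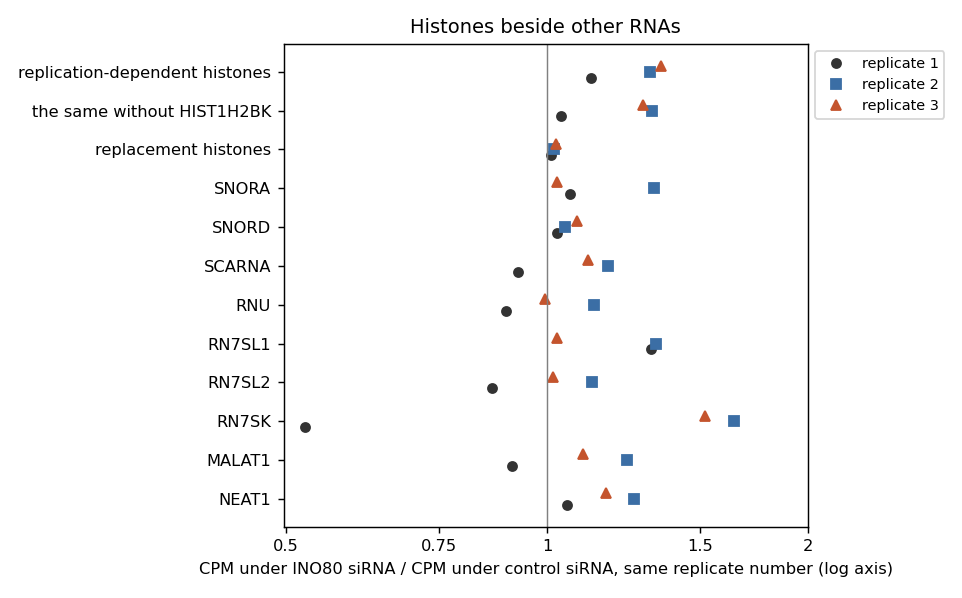
Each point is the CPM under INO80 siRNA divided by that under control siRNA for libraries of the same replicate number, on a log axis, for the summed histone genes, replacement histones, prefix groups of small RNAs and single RNAs. The vertical line marks 1. All 3 ratios of the histone sum lie right of it, at 1.12 to 1.35, and those of RN7SK spread from 0.526 to 1.64.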

How the data were processed

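HK-2 RNA from 3 control siRNA and 3 INO80 siRNA libraries was poly(A)-selected and made into directional libraries, per the labels. The submitters' processing notes name HISAT2 2.0.1, HTSeq and hg19, while the study's methods name ELAND and hg38. The coordinates in the table are GRCh37. The strand setting of the counting is not given in the sources used here. The deposited table held raw counts per gene and FPKM that the authors computed. FPKM recomputed from counts and exonic length were equal to 2 decimals for 100% of values.

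Counts were tested with edgeR 4.0.16 (filterByExpr, TMM scaling, quasi-likelihood test, treatment as the only term, Benjamini-Hochberg adjustment over 15343 genes, threshold 0.05) in R 4.3.3. CPM are on TMM-scaled library sizes. With 3 against 3, the smallest exact permutation p is 0.1. Over all genes, deviations from the group means correlated at 0.639, 0.446 and 0.427 between same-numbered libraries and at most at 0.165 between others, so the numbers were taken to pair the libraries and the blocked value is given where it changed a call. The pairing comes from the labels' replicate numbers and this correlation. Alternatives were DESeq2 1.42.0, median-ratio scaling, no filter, the block and leaving out each library. The code was tested on simulated data.

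All 89 histone genes were matched to GENCODE v44, 50 by identifier and 39 by symbol through RefSeq synonyms, for coding length, stem-loops and shared stretches of 100 bases. Genomic sequence is from hg38.

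The members and lists were chosen with earlier results of these data known. Named were INO80, histone genes past the threshold with or without the block, the 3 of each class with the highest mean CPM, list genes past the threshold and a fixed set of 12 list genes. HIST1H2BC, HIST1H2BJ, HIST2H2BE, HIST1H4I, genes at 0, head to head neighbours, H2AFY2, RN7SL1 and tubule markers were named after their values were seen.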

Additional observations from a re-analysis of the deposited data

How the results depend on the processing

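The summed histone level stayed higher under INO80 siRNA in every alternative run, with a log2 ratio of 0.33 as reported, 0.28 without HIST1H2BK, 0.35 on raw library totals and 0.29 to 0.38 on leaving out each library. The median log2 fold change of the tested histone genes was 0.43 as reported and 0.27 to 0.49 on leaving out each library. No histone gene was called in any of the fits that left out 1 library, but these have fewer libraries. With the replicate block, 2 histone genes were called, and 2 with median-ratio scaling added. Still with the block, 2 were called without the libraries numbered 1, 1 without those numbered 2 and 0 without those numbered 3. DESeq2 with the block called 0 but gave an adjusted p for HIST1H2BK alone (0.0733). It fitted HIST1H2AC and the others without an adjusted p, so they could not be called there. These last 5 fits were chosen after seeing the data, and the cause of the differences was not tested.

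Of the lists of related genes, 4 genes were called as reported, 9 with no filter on low counts, 10 in DESeq2, 46 with the replicate block, 47 with the block and median-ratio scaling, 26 in DESeq2 with the block, 49, 34 and 34 with the block without the libraries numbered 1, 2 and 3, and 0 to 3 on leaving out each library. The same fits called 268, 708, 637, 3798, 3831, 1852, 3978, 2623 and 2251 of all genes tested, in that order. On leaving out each library, 18 to 146 of all genes were called. The block changed no call of a histone gene other than those of HIST1H2BK and HIST1H2AC.

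Low counts left 4 signs unsettled, none with a call in any alternative. On leaving out each library, the log2 fold change ran from -0.0369 to 0.45 for HIST1H2AG, from -0.34 to 0.36 for HIST2H2AC, from -0.40 to 0.0943 for HIST1H2BC and from -0.16 to 0.80 for HIST4H4. With the block without the libraries numbered 1 it was 0.19 for HIST1H2BC. Without those numbered 2 it was -0.11 for HIST1H2AG, -0.54 for HIST2H2AC and 0.20 for HIST1H2BC. HIST2H2AC stood at -0.10 without those numbered 3 and at -0.0442 in DESeq2 with the block. Leaving out 1 library also moved HIST2H2BE between 0.55 and 1.504, HIST1H2BH between 0.27 and 0.87 and HIST1H2BD between -0.58 and -0.0088.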
